A study of Mus musculus with 2 samples.

Results

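Connexins are the membrane proteins of gap junctions. They assemble into rings called connexons, and connexons of neighbouring cells dock to form channels through which ions and small metabolites pass from cell to cell. Different tissues use different connexins: Gja1 is widespread and is used by ameloblasts, odontoblasts and bone cells, Gja4 and Gja5 are used by endothelium, Gjb2 and Gjb6 by skin, oral and inner ear epithelium, Gjb5 by stratified epithelium, Gjb1 by Schwann cells and hepatocytes, and Gjc1 by vascular smooth muscle and the heart. In the tooth, gap junctions couple cells within the ameloblast and odontoblast layers, and mutations of human GJA1 can disturb enamel.

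The 8 connexin genes Gja1 (encoding Cx43), Gja4 (Cx37), Gja5 (Cx40), Gjb1 (Cx32), Gjb2 (Cx26), Gjb5 (Cx31.1), Gjb6 (Cx30) and Gjc1 (Cx45) were followed on microarrays of mouse incisors. They were chosen by gene name, and all of their probes other than control spots were read, 9 probes in all. They are 8 of the 16 connexin genes reported here, and 8 of 21244 named genes on the array. The study compared the incisor of newborn wild-type mice with that of mice without Sox21, a transcription factor of the dental epithelium, to find genes that depend on it. The labels give postnatal day 0 for both samples, whereas the methods give postnatal day 1. Wild-type animals were C57BL/6J, and the Sox21 KO line carries GFP inserted at the Sox21 locus. The strain background of the KO line and the number of animals behind each RNA were not given in the sources used here. The loss of Sox21 was not described as restricted to any cell type.

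Each genotype was measured on 1 one-colour array, and both arrays lay on the same slide. No replicate check exists, no test between genotypes was possible, and differences between animals cannot be told apart from the genotype. Values are processed signals, which are background-subtracted fluorescence intensities, and normalized signals, which are processed signals scaled to the signal at the array's 75th percentile. Errors after ± on signals are those of the scanner software's error model for the spot, and errors on log2 ratios were propagated from them. They cover measurement of the spot and not the spread between animals. A probe was measured where every spot of it was marked well above background on both arrays. Where several probes of a gene were measured, the brightest stands for the gene. Signals of different probes depend on the probe as well as on the transcript, so levels were not ordered between genes.

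The arrays were alike in depth of signal. The signal at the 75th percentile was 268 for wild-type and 276 for Sox21 KO, and 49.7% and 50.4% of spots were well above background. No spot was saturated. Both probes of Sox21 were lower on the KO array, at a log2 ratio of -1.09 ± 0.20 for the brighter probe and -1.51 ± 0.22 for the dimmer one, and neither was at background. Whether these probes lie in the removed part of the gene was not given. Markers of the labelled tissue were present: all 7 ameloblast and all 4 odontoblast markers were measured on both arrays. The bone markers were measured as well, 7 of 7, so the RNA also held transcripts of bone or of cells that share its genes.

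Among the 7 members measured on both arrays, Gjb2 and Gjb6 were higher on the Sox21 KO array by 2.61-fold and 1.65-fold, and Gja5 was lower at 0.667 of its wild-type signal. The other 4 lay closer to equality, between a log2 ratio of -0.29 for Gjc1 and 0.08 for Gja1. Gjb5 stayed at background in both samples. In counts, 4 of the 7 were higher and 3 lower, with a median log2 ratio of 0.04 beside 0.01 over all 13796 measured genes. One member, Gjb2, was at least 2-fold higher, or 14.3% of those measured, where 0.739% of all measured genes were. None of the 7 was at least 2-fold lower, where 0.667% of all genes were. At a threshold of 1.5-fold 2 members were higher, against 3.2% of all genes, and 0 were lower, against 2.99%. Those 1.5-fold counts hold for the scaling used here, since other processing moved Gjb6 and Gja5 across that threshold. With 7 genes and 1 array per genotype these shares describe the arrays and are not a test.

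**Figure D1:**
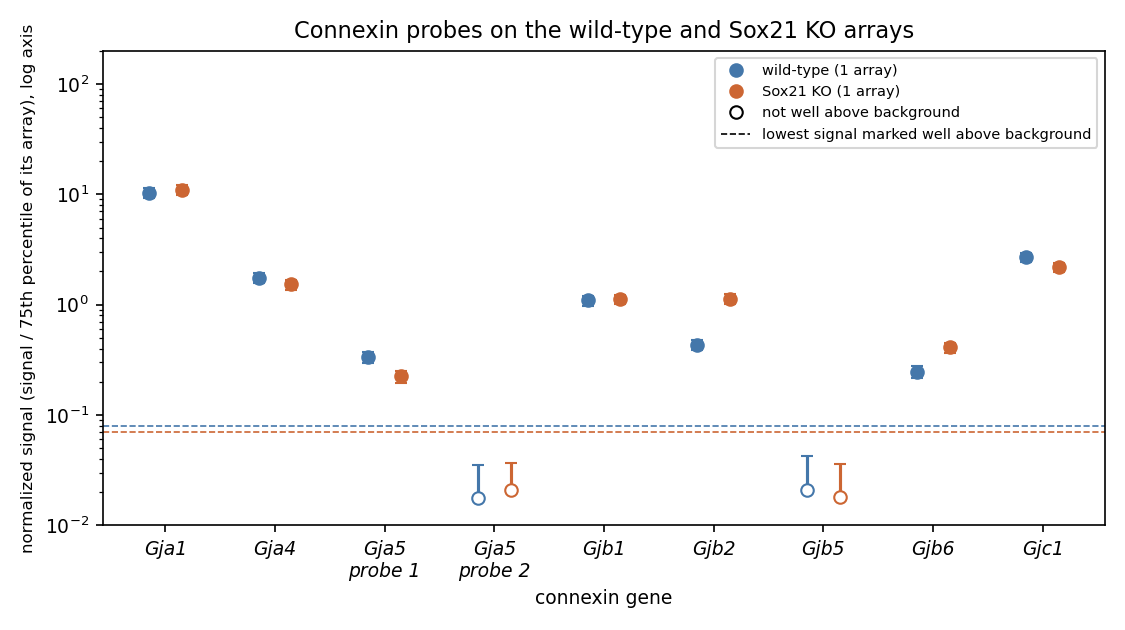
Normalized signal (log axis, scaled to the array's 75th percentile) of every probe of the 8 connexin genes on the wild-type and Sox21 KO arrays, with the error of the scanner's model as bars. Only the upper bar is drawn for open points, which were not well above background. The pairs for Gjb2 and Gjb6 are the ones in which the KO point stands clearly higher. For Gjb2 the normalized signals are 0.434 and 1.13.

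Gjb2 and Gjb6 encode connexins of the epidermis and of the supporting cells of the cochlea, where both proteins can share a channel. Human GJB2 is a frequent site of mutations in inherited deafness, and human GJB6 is mutated in an ectodermal dysplasia with changes of hair, nail and skin. The Gjb2 probe lies at chr14:57717629-57717688 on the minus strand and the Gjb6 probe at chr14:57742226-57742285 on the same strand (mm9). The first 30 of the 60 bases of each probe are shown because these oligos carried the differences, and they show how unlike the compared targets are.

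Gjb2 probe: caagttgaaccattaccactatgccttatg
Gjb6 probe: ttcattggacaatatacattgccgattgct

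Over their whole length, the longest run of bases that the Gjb2 probe shared with a probe of another connexin was 9 bases, and for the Gjb6 probe it was 7 bases. Over the 17 probes of the 16 genes the longest such run was 10 bases.

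The Gjb2 probe gave 116 ± 12.9 in the wild-type and 312 ± 31.6 in the KO. After scaling, these were 0.434 and 1.13. The log2 ratio of KO over wild-type was 1.38 ± 0.22, which is 6.37 times its model error, so the signals lay apart by more than the error of the spots. Gjb2 was also in a list that the study picked from these same arrays, so its place there is not independent evidence.

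For Gjb6 the signal was 66.3 ± 7.89 in the wild-type and 113 ± 11.9 in the KO. Scaled, the values were 0.248 and 0.409. The log2 ratio was 0.72 ± 0.23, or 3.15 times its model error. Gjb6 moved in the same direction as its neighbour Gjb2 but by less, and its signals were nearer to the background, since signals counted as well above background began at 21.3 for wild-type and 19.5 for KO. With the normexp background correction, which raises dim signals and so draws ratios together, the log2 ratio was 1.02 for Gjb2 and 0.42 for Gjb6.

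Gjb5, the remaining connexin of stratified epithelium among the 8, gave 5.63 ± 5.65 in the wild-type and 4.97 ± 4.99 in the KO with its probe at chr4:127032053-127032112 (minus strand). The error was as large as the signal on both. Of 308 negative control spots, 62 and 94 were as bright or brighter on the respective arrays. No ratio is given for Gjb5: a transcript was not detectable with this oligo, whose first 30 bases are shown so that the target of the missing signal is plain.

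Gjb5 probe: cacgtacgtgtgaatcactgctgttaggga

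Gja4 and Gja5 encode the connexins that join endothelial cells, Gja5 mainly in arteries and in the conducting tissue of the heart. The Gja4 probe (chr4:126988848-126988907, minus strand) gave 469 ± 47.3 and 420 ± 42.3, or 1.75 and 1.52 after scaling. Its log2 ratio of -0.20 ± 0.21 did not exceed its own error.

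Gja5 had 2 probes. They are shown because only one of them was well above background, and the pair shows which stretch was read.

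Gja5 brighter probe: ccgacactggcactaagactctctgttctg
Gja5 dimmer probe: caaataacagtgggcagttgaacagcagcc

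The brighter probe (chr3:96857349-96857408, plus strand) gave 89.7 ± 10.2 in the wild-type and 61.6 ± 7.65 in the KO, or 0.335 and 0.223 after scaling. Its log2 ratio was -0.58 ± 0.24, the lowest of the 7 measured members, and it fell just short of a 1.5-fold difference. The dimmer probe (starting at chr3:96836339 and mapped over 57 bases) gave 4.72 ± 4.73 and 5.71 ± 4.35 and failed the mark in both samples. Of 308 negative control spots, 240 reached its signal for wild-type and 8 for KO, and for KO alone it passed the scanner's weaker mark of a signal significantly over its local background. The lower value for Gja5 therefore rests on 1 probe, and with the normexp correction it was -0.36.

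Endothelial markers varied in both directions, and their part in the value of Gja5 was not tested. All 12 endothelial markers were measured, 8 of them higher and 4 lower on the KO array, with a median log2 ratio of 0.09, a range from -0.29 for Emcn (an endothelial sialomucin) to 0.64 for Tek (the angiopoietin receptor), and a summed normalized signal of 92.9 in the wild-type and 91.6 in the KO. All 5 arterial markers were higher on the KO array by their brightest probe (the other probe of Efnb2, an ephrin of arteries, stood at -0.13), from 0.02 for Hey1 (a Notch-induced repressor) to 0.55 for Dll4 (an arterial Notch ligand), and their sum was 15.4 and 16.1. In such bulk RNA, fewer cells of a type and less RNA per cell cannot be told apart.

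Gja1 encodes the most widely used connexin of bone, dental epithelium and dental mesenchyme. Its probe (chr10:56109814-56109873, plus strand) was printed in 10 spots on each array. The wild-type spots gave signals with a lowest value of 2538, a median of 2801 and a highest of 2916. The KO spots gave 2742, 2981 and 3331. The ranges overlapped. After scaling, the means were 10.4 ± 0.455 (SD, 10 spots) and 10.9 ± 0.646 (SD, 10 spots). The log2 ratio was 0.08 ± 0.10 (SD over 10 spots), from -0.03 to 0.21 between single spots, and 6 of the 10 spots were higher on the KO array. These spots repeat 1 labelled RNA per genotype, so their spread is technical.

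**Figure D2:**
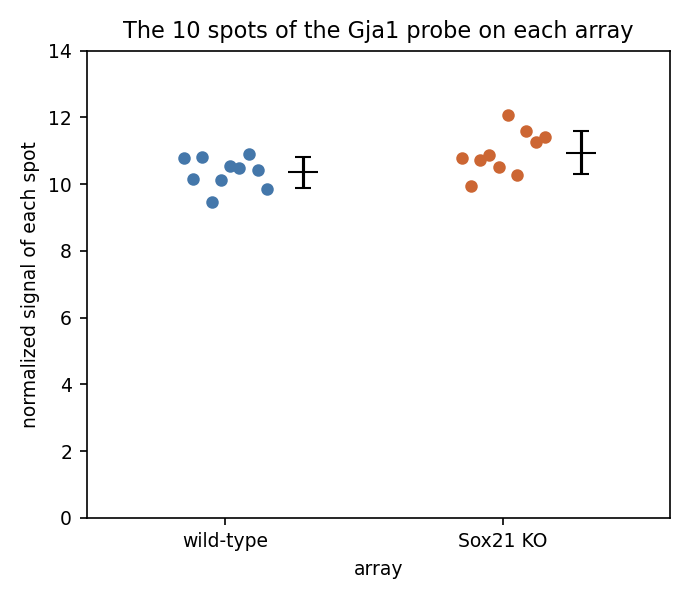
Normalized signal of the 10 repeat spots of the Gja1 probe on the wild-type and Sox21 KO arrays, with the mean and SD over spots. The wild-type spots run from 9.48 to 10.9 and the KO spots from 9.95 to 12.1, so that the clouds overlap.

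The cells known to use Gja1 in this tissue gave mixed marker values. Of the 7 ameloblast markers, 5 were lower and 2 higher, with a median log2 ratio of -0.62. Amtn and Klk4, an adhesive protein and a protease of maturing enamel, were at least 2-fold lower (-1.89 and -1.05), and Odam, another protein of the maturation stage, was the highest at 0.63. The summed ameloblast signal was 3162 and 2866. Of the 4 odontoblast markers 3 were higher and 1 lower, with a median log2 ratio of 0.42 and 2 at least 1.5-fold higher. Their sum, most of it Dspp, was 119 and 122, and the ratios lay between -0.01 for Dspp (the precursor of dentin matrix proteins, with 0.28 for its other probe) and 0.93 for Dmp1 (a mineralization protein of the matrix). Of the 7 bone markers 6 were higher and 1 lower, with a median of 0.11 and a sum of 511 and 590, between -0.10 for Runx2 (the osteoblast transcription factor, with 0.24 for its other probe) and 0.82 for Spp1 (osteopontin). Their part in the value of Gja1 was not tested.

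Gjc1, a connexin of smooth muscle, pericytes and the heart, had signals of 717 ± 71.9 and 602 ± 60.5 with its probe at chr11:102661010-102661069 (minus strand). Scaled, these were 2.68 and 2.19. The log2 ratio was -0.29 ± 0.20, slightly more than its model error. Of the 6 measured markers of smooth muscle and pericytes, 5 were higher on the KO array, from -0.09 for Tagln (an actin-binding protein of smooth muscle) to 0.45 for Cspg4 (the pericyte proteoglycan NG2), with a sum of 116 and 125. Myh11, the smooth muscle myosin, was well above background on the KO array alone and at least 1.28-fold higher there.

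Gjb1, the connexin of myelinating Schwann cells and of hepatocytes, was nearly equal on both arrays. The signals of its probe (chrX:98580902-98580961, plus strand) were 292 ± 29.7 and 308 ± 31.2, or 1.09 and 1.12 after scaling. The log2 ratio was 0.04 ± 0.21. Of the Schwann cell markers 4 of 5 were measured, with log2 ratios by the brightest probe from -0.07 for Prx (periaxin of the Schwann cell membrane) to 0.02 for Mbp (myelin basic protein), and sums of 16.0 and 15.9. The other measured probes gave -0.43 and 0.24 for Mbp and -0.10 for Pmp22, another myelin protein. Erbb3, the neuregulin receptor of these cells, passed the mark in neither sample.

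The 8 other connexins reported here are used mainly outside the tooth. Of these, 1 was measured on both arrays, 2 were well above background on the KO array alone, 0 on the wild-type array alone and 5 on neither. Gja3, a lens connexin, stood at 148 in the wild-type and 124 in the KO, a log2 ratio of -0.30 ± 0.22. Gja10, of retinal horizontal cells, and Gjc3, of Schwann cells, passed on the KO array alone by a narrow margin. The signals were 26.8 ± 6.37 and 31.5 ± 6.23 for Gja10. They were 17.5 ± 5.45 and 24.2 ± 5.40 for Gjc3, so for both genes the errors overlapped. The normalized KO signal of Gja10 was 1.14 times its own wild-type signal, an observed ratio and not a bound. For Gjc3 it was 1.10 times the lowest wild-type signal marked well above background, which exceeded the wild-type signal of Gjc3. Values given as at least some fold, for Myh11 and Krt4, are set against that same lowest signal.

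Gja6, Gjd2, Gjd3, Gjd4 and Gje1 passed the mark in neither sample. Over the 16 connexins, 8 were measured, 4 of them higher and 4 lower, with a median log2 ratio of -0.08. Gjb2 was the 1 that was at least 2-fold higher, and 0 were at least 2-fold lower, against 0.739% and 0.667% of all measured genes.

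**Figure D3:**
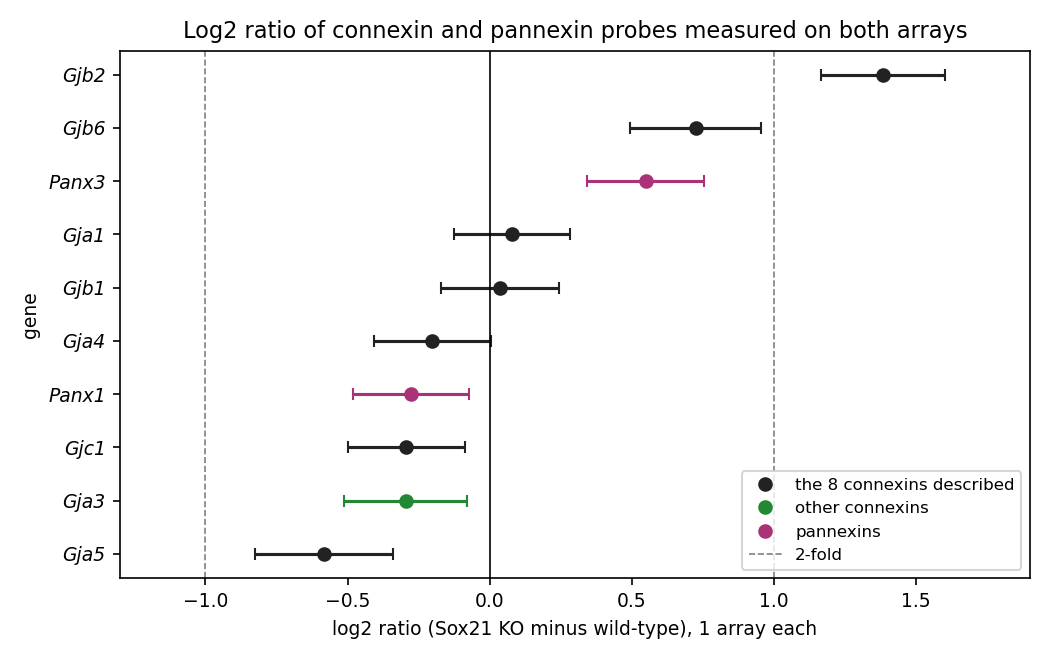
Log2 ratio of Sox21 KO over wild-type for every probe of the reported connexins and pannexins that was well above background on both arrays, with bars for the propagated model error. Gjb2 stands at 1.38, Gjb6 follows at 0.72, and Gja5 is the lowest at -0.58.

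By position, Gjb2 and Gjb6 lay beside Gja3, whose log2 ratio was below 0 by 1.36 times its model error. In the mm9 coordinates of the file, the probes of Gja3, Gjb2 and Gjb6 span 87.5 kb of chromosome 14, with Gjb2 at 62.9 kb and Gjb6 at 87.5 kb from Gja3. The log2 ratios in that order were -0.30 ± 0.22, 1.38 ± 0.22 and 0.72 ± 0.23.

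Sox21 itself lies on chromosome 14, with its nearer probe 60.9 Mb from the Gjb6 probe. Of the 6 coding genes next to these connexins, taken as the 3 nearest on each side by their order in RefSeq, 4 were measured. Their log2 ratios ran from -0.01 for Ift88, a protein of ciliary transport, to 0.15 for Cryl1, a crystallin-like enzyme beside Gjb6, and 0 of the 4 were 2-fold apart. Over all measured genes 0.739% were at least 2-fold higher and 0.667% lower, so 0 of 4 genes is near that share. These flanking genes were chosen after the connexin values were known.

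**Figure D4:**
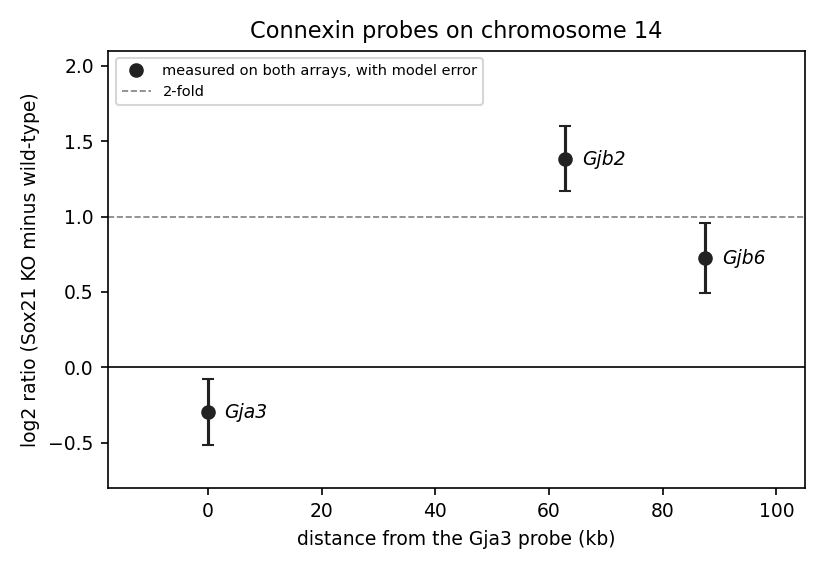
Log2 ratio of Sox21 KO over wild-type against the distance (kb) of the Gjb2 and Gjb6 probes from the Gja3 probe on chromosome 14, with bars for the model error. Gja3 lies below 0 at -0.30, while Gjb2 at 1.38 and Gjb6 at 0.72 lie above it.

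The upstream sequences of Gjb2 and Gjb6 are shown because these neighbours were higher together. They are the 250 bases before the annotated start in RefSeq on GRCm38.p6, written in the direction of transcription: chr14:57104703-57104952 for Gjb2 and chr14:57133612-57133861 for Gjb6, both on the minus strand. Capitals mark the letters GGGCGG of a GC box, the motif bound by Sp1, or its reverse complement.

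Gjb2 upstream: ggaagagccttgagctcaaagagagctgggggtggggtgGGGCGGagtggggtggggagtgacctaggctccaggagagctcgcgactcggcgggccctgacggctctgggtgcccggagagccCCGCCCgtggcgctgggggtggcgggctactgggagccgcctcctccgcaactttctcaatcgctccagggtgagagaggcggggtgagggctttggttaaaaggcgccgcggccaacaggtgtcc
Gjb6 upstream: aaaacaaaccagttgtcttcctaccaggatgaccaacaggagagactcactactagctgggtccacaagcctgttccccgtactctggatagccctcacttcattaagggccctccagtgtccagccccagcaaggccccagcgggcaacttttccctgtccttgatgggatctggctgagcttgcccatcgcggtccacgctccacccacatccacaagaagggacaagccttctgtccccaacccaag

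The Gjb2 stretch had 69.2% G and C and the Gjb6 stretch 56.8%, beside a median of 52.4% over all promoters of the table. Both strands were searched for the core letters that Sox proteins bind, which are ACAATG in one common form and, in another form, ACAAAG. The search also covered the GC box GGGCGG, the letters TATAAA of the TATA box, and the site of AP-1, for which the letters are TGANTCA with any base at N. Gjb2 held 2 GC boxes and none of the other letters, and Gjb6 held none of the 5 motifs. The RefSeq promoter table used here held 10 upstream stretches of 7 of the 8 members, 4 of them for annotated starts of Gjb1, and the promoter of Gjc1 was not analysed here.

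Of these 10 stretches, ACAATG lay in 1 (a start of Gjb1), against 10.7% of all promoters. ACAAAG lay in 3, at Gja5 and at starts of Gjb1, against 16.5%. A GC box lay in 4, at Gja4, Gja5, Gjb1 and Gjb2, against 32.7%. TATAAA lay in 2, at Gjb1 and Gjb5, against 12.4%, and the AP-1 letters in 1, at Gja1, against 6.75%. No 2 motif matches in the members overlapped. A match is a description of the letters and not a binding site.

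Pannexins form related channels that open to the outside of the cell and not to a neighbour. Panx1, a channel for ATP release, had signals of 5436 and 4618 and a log2 ratio of -0.28 ± 0.20. Panx3, of osteoblasts, odontoblasts and cartilage, had 421 and 633 and a log2 ratio of 0.55 ± 0.21. Panx2 was not well above background with either of its probes. The 15 genes of a list of connexin partners, which scaffold, phosphorylate or turn over connexins or hold junctions together, were all measured, 7 of them higher and 8 lower, and their median log2 ratio was -0.08. None was at least 2-fold apart, where 0.739% of all measured genes were at least 2-fold higher and 0.667% lower. They ran from -0.44 for Cdh2 (N-cadherin, with -0.30 for its other probe) to 0.27 for Ubqln4 (a ubiquitin-binding protein), and their summed signal was 257 in the wild-type and 250 in the KO.

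Genes of suprabasal skin and oral epithelium were higher together with Gjb2 and Gjb6. Of 13 such markers, 10 were measured and all 10 were higher on the KO array, 6 of them at least 2-fold, with a median log2 ratio of 1.17 and a summed normalized signal of 31.8 in the wild-type and 62.6 in the KO. The 6 were Spink5 (a protease inhibitor of the skin barrier, 2.03), the keratins Krt1 (1.45), Krt6b (1.39) and Krt6a (1.28), Krtdap (a keratinocyte differentiation protein, 1.18) and Lor (loricrin of the cornified envelope, 1.15). The keratins Krt10 and Krt13 stood at 0.34 and 0.56 by their brightest probes, but at 1.84 and 1.94 by their other probes, which were at least 2-fold higher.

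Krt4, a keratin of oral mucosa, was well above background in the KO alone and at least 7.81-fold higher there. Sbsn, a secreted protein of differentiated keratinocytes, had the lowest log2 ratio of the list, 0.34, while Ivl and Dsc1 passed in neither sample. Spink5 and several of these keratins were also in the list that the study picked from these arrays, so they are not independent evidence. Basal epithelium markers differed less, with 4 of 7 higher, log2 ratios from -0.26 for Col17a1 (a hemidesmosome collagen) to 0.25 for Krt5 (the basal keratin), and sums of 607 and 695. These are the values of the brightest probes. The other probe of Krt5 stood at 0.59, and Trp63, the transcription factor of basal cells, had 0.22 for its brightest probe and -0.68, -0.41 and 0.02 for the others. Whether suprabasal epithelial cells were more abundant in the KO incisor RNA, and their part in the values of Gjb2 and Gjb6, was not tested.

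**Figure D5:**
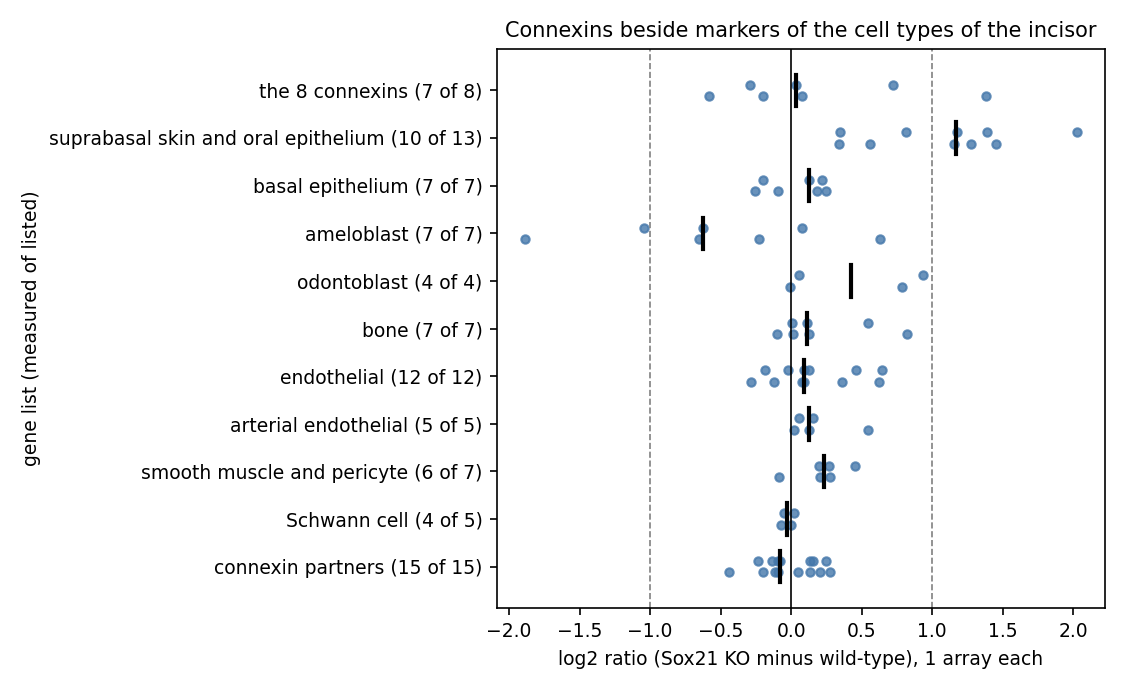
Log2 ratio of Sox21 KO over wild-type for each measured gene of the marker lists, beside the connexin members, with a bar at the median of each list. The list of suprabasal skin and oral epithelium lies wholly above 0 with a median of 1.17, while the medians are -0.62 for ameloblast, 0.42 for odontoblast, 0.11 for bone, 0.13 for basal epithelium, 0.09 for endothelial, 0.13 for arterial, 0.23 for smooth muscle and -0.03 for Schwann cell markers, and -0.08 for connexin partners.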

How the data were processed

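RNA of 1 wild-type and 1 Sox21 KO mouse incisor sample was hybridised by the authors to one-colour Agilent SurePrint whole mouse arrays labelled with Cy3. The deposited scanner files hold fluorescence intensities from Agilent Feature Extraction 10.7.3.1, background-subtracted in their processed column. The deposited series table holds, per array, a linear ratio of that intensity to a constant, which was found here to be 268 for the wild-type and 276 for the KO array, the 75th percentile of each. The methods name a percentile shift and the removal of very low signals, with neither percentile nor threshold stated.

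From the scanner files, 59305 of 62976 spots were not controls, and 267 outlier spots were left out. Signals of spots of 1 probe were averaged after log2, and 55679 probes remained. Probes were named through RefSeq: 26298 by accession, 2044 by symbol, 355 by older symbol, and 26982 were not named, so the counts cover named genes. Processed signals were divided by the 75th percentile over all spots of the array, and the log2 ratio is KO minus wild-type. With 1 array per genotype no test was run and no p-value is given. The number of arrays limits the precision. Over 298 probes printed repeatedly, the median SD of the log2 ratio between spots was 0.09.

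The text names the connexins and pannexins, Sox21, and of each list the genes at least 2-fold apart and those with the highest and lowest ratio. It also names some list genes whose other probes differed and some that were not measured on both arrays. Some connexins, list genes and flanking genes are not reported here and were left out of the counts of their lists. The members and lists were chosen with earlier results of these data known, and flanking genes and motifs after their values were seen. Other scalings, normexp background correction (offset 50, limma 3.58.1 in R 4.3.3), filters, probe rules and the series table were tried. The steps were tested on simulated data. Python 3.11.15, numpy 2.4.6, pandas 2.3.3 and matplotlib 3.10.9 were used. Gene positions are those of the scanner files (mm9), and upstream sequences are from RefSeq (GRCm38.p6); the builds were not mixed.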

Additional observations from a re-analysis of the deposited data

How the results depend on the processing

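No measured member changed sign under 9 alternative settings, but several of these could not move a member value. Averaging over probes could not, since each measured member had 1 measured probe. The changed background filters kept that same probe, and the series table has the same divisors. The number of members measured on both arrays rests on the scanner's marks, so scaling could not change it. It stayed at 7 except without a requirement on background, which adds Gjb5 at background level. Across settings Gjb2 ranged from 1.02 to 1.48, Gjb6 from 0.42 to 0.82, Gja5 from -0.60 to -0.36 and Gjb1 from 0.00 to 0.13. The median log2 ratio of the members was 0.13 with a shift by the median of each array and -0.083 without a requirement on background. Of the other connexins 1 was at least 2-fold apart without that requirement, against 0. It was Gjd3, which was well above background on neither array. Of all 21244 genes, 508 were then at least 2-fold higher and 695 lower. At 1.5-fold, 2 members were higher with the main scaling. With normexp Gjb6, at 0.42, was below 1.5-fold. With the percentile taken over spots other than controls Gja5, at -0.60, was more than 1.5-fold lower.

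Over all genes, 102 were at least 2-fold higher and 92 lower. These were 135 and 63 with the median shift (median log2 ratio 0.11 against 0.01), 46 and 40 with normexp, 508 and 695 without a requirement on background, and 292 and 321 with a weaker one. The filters differ in the genes they admit, and the cause of the other moves was not tested. No paired analysis was possible because each genotype has 1 array, and for the same reason none could be left out. The dim probes depended on the background correction: with normexp Gja5, Gjb2 and Gjb6 moved toward 0, to -0.36, 1.02 and 0.42. The offset of 50 by itself draws ratios of such signals together.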

Other observations

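Among the connexins not well above background on either array, Gjd3 (a connexin of the conducting heart) gave 17.7 in the wild-type and 4.90 in the KO, and only the former passed the scanner's weaker mark of a signal significantly over its local background.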
